A study of Mus musculus with 9 samples.

Results

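The Hox genes encode homeodomain transcription factors that lie in 4 clusters, HoxA, HoxB, HoxC and HoxD. Members here were all named transcript clusters whose symbol is Hoxa, Hoxb, Hoxc or Hoxd followed by a number from 1 to 13 alone, with the transcript cluster of highest mean kept for each symbol. The rule found 33 genes among 22206 transcript clusters, of which 19572 carried a gene symbol. Each of the 33 symbols had a single transcript cluster. A transcript cluster is the set of probes that the array reads as 1 gene. In the RefSeq annotation of assembly GRCm38.p6 the clusters hold 39 Hox genes, and 8 of 11 in HoxA (chromosome 6), 9 of 10 in HoxB (chromosome 11), 9 of 9 in HoxC (chromosome 15) and 7 of 9 in HoxD (chromosome 2) were measured. The remaining Hox genes were not analysed here.

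The study measured total RNA of thymic lobes of C57BL/6 mouse embryos of age e13.5 with Clariom S arrays. There were 3 genotypes with 3 arrays each. These were wild type, Foxn1933/1089 (called Foxn1 mutant below), which pairs the Foxn1 alleles 933 and 1089, and Tbx1neo2/neo2 (called Tbx1 mutant below), which carries the neo2 allele of Tbx1 on both chromosomes. Foxn1 is the transcription factor that drives thymic epithelial differentiation, and Tbx1 is a T-box factor of the pharyngeal apparatus. The labels do not say whether arrays of a genotype came from separate embryos or litters, or whether lobes were pooled, so p-values measure the spread between these samples alone. Replicate numbers only name the arrays. Values below are deposited log2 signals, given for replicates 1, 2 and 3 in that order within each genotype.

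Hox genes are numbered by paralogue group, the set of genes at matching positions in the different clusters. Low-numbered genes are known to be active in anterior tissues such as the hindbrain and pharyngeal arches, and high-numbered genes in the posterior trunk, limb buds and urogenital tract. Hoxa3 is known to be required for the third pharyngeal pouch to form thymus and parathyroid, and Hoxa2 and the group 3 genes are known to pattern the neural crest of the arches. Hox proteins bind DNA together with the homeodomain cofactors of the Pbx, Meis and Pknox families, and retinoic acid is known to induce the anterior members.

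The 250 bases before the annotated start are shown for 3 members that the results turn on. These are Hoxa2, which passed the 95th percentile of the negative controls on every array; Hoxa3, the known thymus gene, which passed it on none; and Hoxc4, which was highest on a single wild type array. They come from RefSeq promoters of assembly GRCm38.p6, on the gene's own strand, 5′ to 3′, at chr6:52164832-52165081 (minus strand), chr6:52213068-52213317 (minus strand) and chr15:103034145-103034394 (plus strand). Capitals mark matches to TGATNNAT, known as a sequence of Hox and Pbx dimers, CCAAT, known to bind NF-Y, and AGGTCA, the core hexamer of nuclear receptors that include those for retinoic acid, all searched on both strands.
Hoxa2: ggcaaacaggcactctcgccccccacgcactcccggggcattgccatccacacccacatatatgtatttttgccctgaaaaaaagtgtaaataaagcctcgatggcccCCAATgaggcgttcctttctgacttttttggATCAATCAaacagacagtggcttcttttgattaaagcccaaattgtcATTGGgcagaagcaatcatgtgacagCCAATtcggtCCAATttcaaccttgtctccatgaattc
Hoxa3: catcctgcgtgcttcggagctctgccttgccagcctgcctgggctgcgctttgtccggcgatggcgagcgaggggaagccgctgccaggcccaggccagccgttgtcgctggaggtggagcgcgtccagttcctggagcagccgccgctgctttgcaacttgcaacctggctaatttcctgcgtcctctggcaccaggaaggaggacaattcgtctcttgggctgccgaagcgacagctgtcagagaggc
Hoxc4: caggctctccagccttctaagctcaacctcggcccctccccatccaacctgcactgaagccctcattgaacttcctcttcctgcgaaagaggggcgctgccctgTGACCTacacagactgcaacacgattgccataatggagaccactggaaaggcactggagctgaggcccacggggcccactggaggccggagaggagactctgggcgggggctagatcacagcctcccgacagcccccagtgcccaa

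The Hoxa2 window held 1 TGATNNAT match, 111 bases before the start and read on the opposite strand, 4 CCAAT matches and 6 CpG dinucleotides. The Hoxa3 window held none of the 3 motifs and 18 CpG dinucleotides, and the Hoxc4 window held 1 AGGTCA match and 8 CpG dinucleotides. The Hoxa3 window lies upstream of those of Hoxa5 and Hoxa6, before a Hoxa3 span that overlaps both genes. No other Hoxa3 window was listed or searched. Over 32851 promoter windows of that length, 7.68% held TGATNNAT, 33.8% CCAAT and 14.0% AGGTCA. The 19 windows listed for 17 of the 33 members held them in 4, 12 and 3 windows, and had a median of 13 CpG dinucleotides against 6 in all windows. Matches of different motifs were allowed to overlap, and did not in these 3 windows. A match describes the letters of the window and is not evidence of binding. The RefSeq span of Hoxa3 overlaps those of Hoxa4, Hoxa5 and Hoxa6, Hoxb3 overlaps Hoxb4, and Hoxd11 overlaps Hoxd10, so readings of these genes may share transcripts.

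The medians of the 9 arrays lay between 5.09 and 5.20. Background was taken from 5222 negative-control features, whose medians lay between 4.27 and 4.94 and whose 95th percentiles lay between 8.03 and 9.70. Foxn1 RNA read 7.78, 10.35 and 10.01 in wild type, 9.02, 8.73 and 9.67 in Foxn1 mutants and 8.88, 10.04 and 9.70 in Tbx1 mutants, and Tbx1 RNA read 4.25 to 5.85 in wild type, 4.07 to 4.83 in Foxn1 mutants and 4.80 to 5.38 in Tbx1 mutants. Neither gene's RNA checks the genotype, since the labels do not say which part of a gene an allele alters or whether RNA is still made. A pair of arrays went against the thymic label. The thymic epithelial gene Prss16 read 4.24 on wild type replicate 1 and 4.45 on Foxn1 mutant replicate 2 against 13.87 to 14.43 on the other 7 arrays, and Psmb11 read 3.40 and 3.36 against 9.52 to 10.66. Of 9 thymic epithelial markers, 6 on the first array and 5 on the second were at least 1 log2 unit under the median of the other 8 arrays, while Epcam read 8.33 and 8.82 against 7.98 to 8.83, Ccl25 5.78 and 5.67 against 5.88 to 6.89, and Cd83 4.68 and 4.78 against 3.91 to 5.17. Sample titles also hold 3 date codes, A to C below, which no source used here explains. Tbx1 mutant replicates 2 and 3 share code C with wild type replicate 1. Foxn1 mutant replicates 1 and 3 share code B with wild type replicate 2, and the remaining array of each genotype has code A.

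Against these backgrounds, 4 anterior Hox genes were read above the negative-control median on every array and no posterior one was. Hoxa2 was the single member above the 95th percentile of the negative controls on all 9 arrays, a range that held 15.2% of all transcript clusters. Hoxb2, Hoxb3 and Hoxa4 lay above the negative-control median on all 9 arrays, as did a further 32.6% of all transcript clusters. Another 7 members (21.2%), Hoxa3, Hoxa5, Hoxb5, Hoxc6, Hoxb7, Hoxd8 and Hoxa10, passed that median on 1 to 8 arrays, against 18.5% of all transcript clusters. The remaining 22 members, 66.7% of the 33, stayed under it on all 9 arrays, against 33.7% of all transcript clusters. By paralogue group, the members above the median on all arrays were 3 of 6 in groups 1 to 3, 1 of 5 in groups 4 and 5, 0 of 7 in groups 6 to 8 and 0 of 15 in groups 9 to 13. Of all 22206 transcript clusters, 10617 were above the median on all 9 arrays. A reading at background does not show that a gene was silent, since probes differ in how well they bind, and levels of different genes are therefore not compared with each other.

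**Figure D1:**
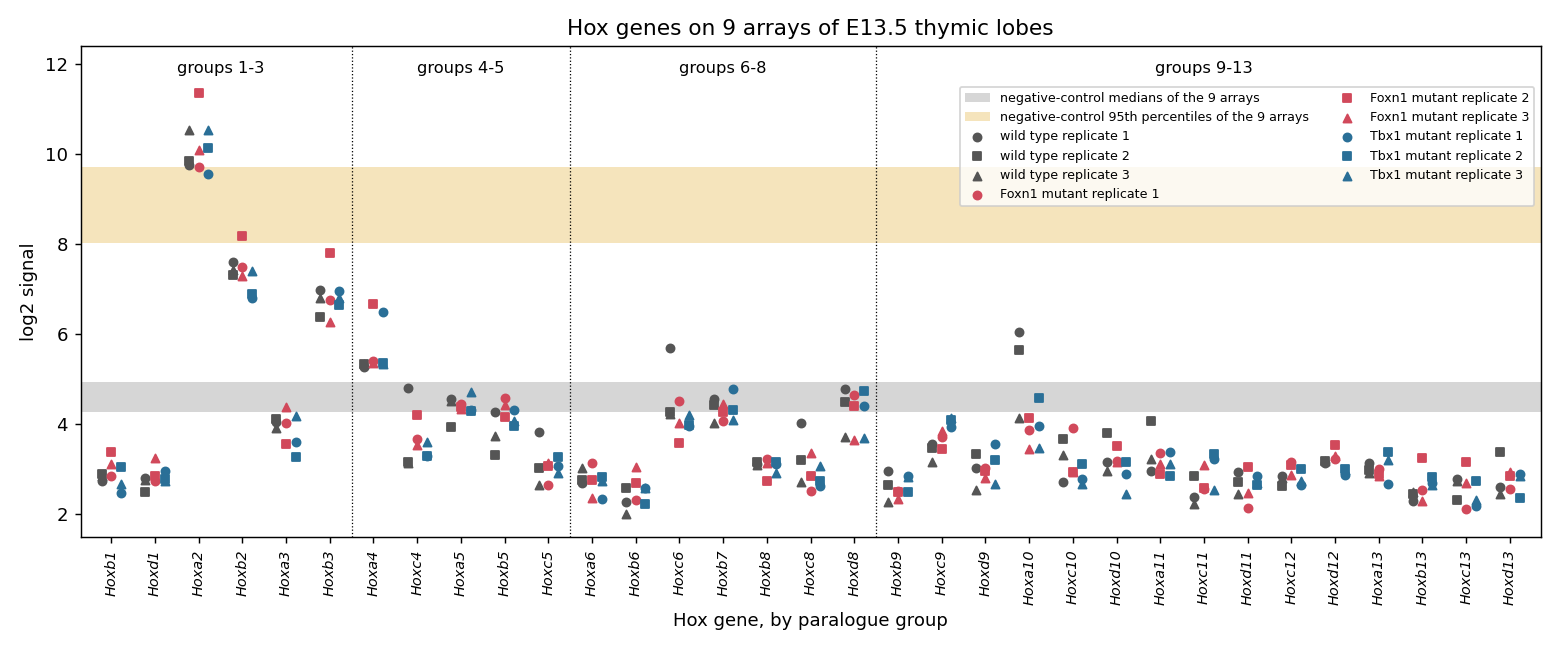
Deposited log2 signal (y axis) of the 33 Hox genes (x axis, by paralogue group) on 9 arrays, 1 point per array, coloured by genotype with 1 marker shape per replicate. The grey band spans the negative-control medians (4.27 to 4.94) and the tan band the 95th percentiles (8.03 to 9.70). Hoxa2 passed the 95th percentile of each array's own controls on all 9 arrays, Hoxb2, Hoxb3 and Hoxa4 passed each array's median, and 22 genes stayed under it throughout. Heights of different genes are not comparable.

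In groups 1 to 3, Hoxa2 and Hoxb2, which pattern the hindbrain and the second arch, were above the negative-control median on all arrays. Hoxa2 read 9.76, 9.84 and 10.54 in wild type, 9.72, 11.36 and 10.09 in Foxn1 mutants and 9.55, 10.13 and 10.53 in Tbx1 mutants. These values passed 95.1% to 98.5% of the negative controls of their own arrays, the genotypes overlapped, and the top value was that of Foxn1 mutant replicate 2. Hoxb2 read 7.60, 7.31 and 7.43 in wild type, 7.49, 8.18 and 7.28 in Foxn1 mutants and 6.79, 6.90 and 7.39 in Tbx1 mutants. Foxn1 mutant replicate 2 was again highest, and 2 of 3 Tbx1 mutant arrays lay under all wild type arrays while the third lay within their range.

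Of the group 3 genes, Hoxb3 passed the negative-control median on all arrays and Hoxa3 on 1. Hoxa3 read 4.05, 4.10 and 3.92 in wild type, 4.02, 3.56 and 4.39 in Foxn1 mutants and 3.59, 3.27 and 4.17 in Tbx1 mutants. It passed the negative-control median on Foxn1 mutant replicate 3 alone, where it reached the 50.6th percentile of the negative controls, and lay under it on the other 8 arrays. Its paralogue Hoxb3 read 6.98, 6.38 and 6.79 in wild type, 6.75, 7.79 and 6.27 in Foxn1 mutants and 6.96, 6.64 and 6.80 in Tbx1 mutants, which passed 79.1% to 89.4% of the negative controls. The highest and the lowest Hoxb3 values were both in Foxn1 mutants, so that genotype enclosed the others. The group 1 genes Hoxb1 and Hoxd1, known from the early hindbrain, lay at 2.46 to 3.37 and 2.50 to 3.24, under the negative-control median on every array.

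Of groups 4 and 5, whose genes act in the posterior hindbrain and cervical region, Hoxa4 alone was above the negative-control median throughout. It read 5.26, 5.33 and 5.33 in wild type, 5.41, 6.67 and 5.37 in Foxn1 mutants and 6.49, 5.35 and 5.34 in Tbx1 mutants. Thus 7 arrays lay within 5.26 to 5.41 and 2 arrays, Foxn1 mutant replicate 2 and Tbx1 mutant replicate 1, stood above them. Both carry date code A, as does wild type replicate 3, which read with the 7. Hoxc4 read 4.79, 3.15 and 3.13 in wild type, 3.67, 4.19 and 3.54 in Foxn1 mutants and 3.28, 3.29 and 3.60 in Tbx1 mutants, with both the highest and the lowest values in wild type. Hoxc5, its neighbour in HoxC, was likewise highest on wild type replicate 1, at 3.82, with the other 8 arrays at 2.64 to 3.27.

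Hoxb5, a gene of the foregut and vagal neural crest, read 4.26, 3.31 and 3.73 in wild type, 4.57, 4.15 and 4.43 in Foxn1 mutants and 4.31, 3.95 and 4.06 in Tbx1 mutants. It passed the negative-control median on Foxn1 mutant replicates 1 and 3 alone, and its Foxn1 mutant and wild type values overlapped. Hoxa5, known from the lung and foregut mesenchyme, read 3.93 to 4.71 and passed that median on 3 arrays.

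In groups 6 to 8, which pattern the thorax, Hoxc6 varied most. It read 5.69, 4.27 and 4.21 in wild type, 4.51, 3.57 and 4.02 in Foxn1 mutants and 3.96, 3.97 and 4.21 in Tbx1 mutants. Wild type replicate 1 stood 1.18 above the next array and there reached the 62.6th percentile of the negative controls. Hoxc8 read 4.03, 3.21 and 2.72 in wild type, 2.50, 2.84 and 3.36 in Foxn1 mutants and 2.61, 2.74 and 3.06 in Tbx1 mutants, under the negative-control median everywhere and again highest on wild type replicate 1. Hoxd8 read 4.78, 4.50 and 3.70 in wild type, 4.65, 4.40 and 3.63 in Foxn1 mutants and 4.39, 4.73 and 3.70 in Tbx1 mutants. Each genotype thus held 1 array at 3.63 to 3.70 and 2 arrays at 4.39 to 4.78, and the 3 low arrays carry 3 different date codes. The other genes of these groups, Hoxa6, Hoxb6, Hoxb7 and Hoxb8, spanned between 0.48 and 1.05 log2 units over the arrays, and Hoxb6, at 2.01 to 3.05, was under the negative-control median on all of them.

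In groups 9 to 13, the posterior and limb genes, Hoxa10 was the sole gene of 15 to pass the negative-control median on any array. It read 6.04, 5.63 and 4.13 in wild type, 3.87, 4.13 and 3.44 in Foxn1 mutants and 3.95, 4.58 and 3.46 in Tbx1 mutants. Wild type replicates 1 and 2 were high, wild type replicate 3 lay within the range of the mutants, and at its highest the gene reached the 73.0th percentile of the negative controls. Its range of 2.59 log2 units was the widest of the 33 members. Hoxd10, Hoxc10 and Hoxa11 had the next widest ranges of these groups, at 1.35, 1.24 and 1.21 log2 units, with top values of 3.80 on wild type replicate 2, 3.90 on Foxn1 mutant replicate 1 and 4.06 on wild type replicate 2. The 33 members as a whole had a median range of 1.06 log2 units over the 9 arrays, beside 1.08 for all transcript clusters.

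Across arrays, the 4 genes above the negative-control median on all 9, Hoxa2, Hoxb2, Hoxb3 and Hoxa4, had their top values on Foxn1 mutant replicate 2. An array's deviation is its value minus the median of the other 8 arrays. On Foxn1 mutant replicate 2, 9 of 33 members were at their highest (27.3%), against 14.2% of all transcript clusters, and 3 of 33 were at least 1 log2 unit above the median of the others (9.09%), against 4.6%. Those 3 were Hoxa2, at 1.39, Hoxa4, at 1.32, and Hoxb3, at 1.02. Hoxb2 deviated by 0.83 and Hoxb1, which stayed under the negative-control median, by 0.52. Groups 1 to 3 had a median deviation of 0.68, beside 0.01 over all transcript clusters, although Hoxa3 went the other way, at -0.48. Without this array Hoxa2 spanned 9.55 to 10.54, Hoxb2 6.79 to 7.60, Hoxb3 6.27 to 6.98 and Hoxa4 5.26 to 6.49. Hoxa4 was thus nearly as high on Tbx1 mutant replicate 1, where it deviated by 1.15. The remaining genes with their top values on Foxn1 mutant replicate 2 were Hoxd11, Hoxd12, Hoxb13 and Hoxc13, all under the negative-control median. When the negative-control median of each array was subtracted first, a setting chosen after seeing the data, groups 1 to 3 deviated by 0.49.

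Foxn1 mutant replicate 2 also differed from the rest in its markers. The mesenchyme and neural crest list had 7 of 10 genes at their highest there, with a list mean of 10.19 against 8.27 to 9.58 elsewhere. The heart muscle list had 4 of 10 genes at their highest, with a mean of 6.89 against 4.43 to 5.59, and its atrial genes Myl7 and Nppa read 10.71 and 7.55 there. The thymic epithelial list averaged 7.22 against 10.27 to 10.80 on the 7 arrays with Prss16, and the leukocyte list 4.99, with 4 of 6 genes under the negative-control median. The part of these other tissues in the high Hoxa2, Hoxb2, Hoxb3 and Hoxa4 readings was not tested, and in bulk RNA fewer cells of a type and less RNA per cell cannot be told apart.

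**Figure D2:**
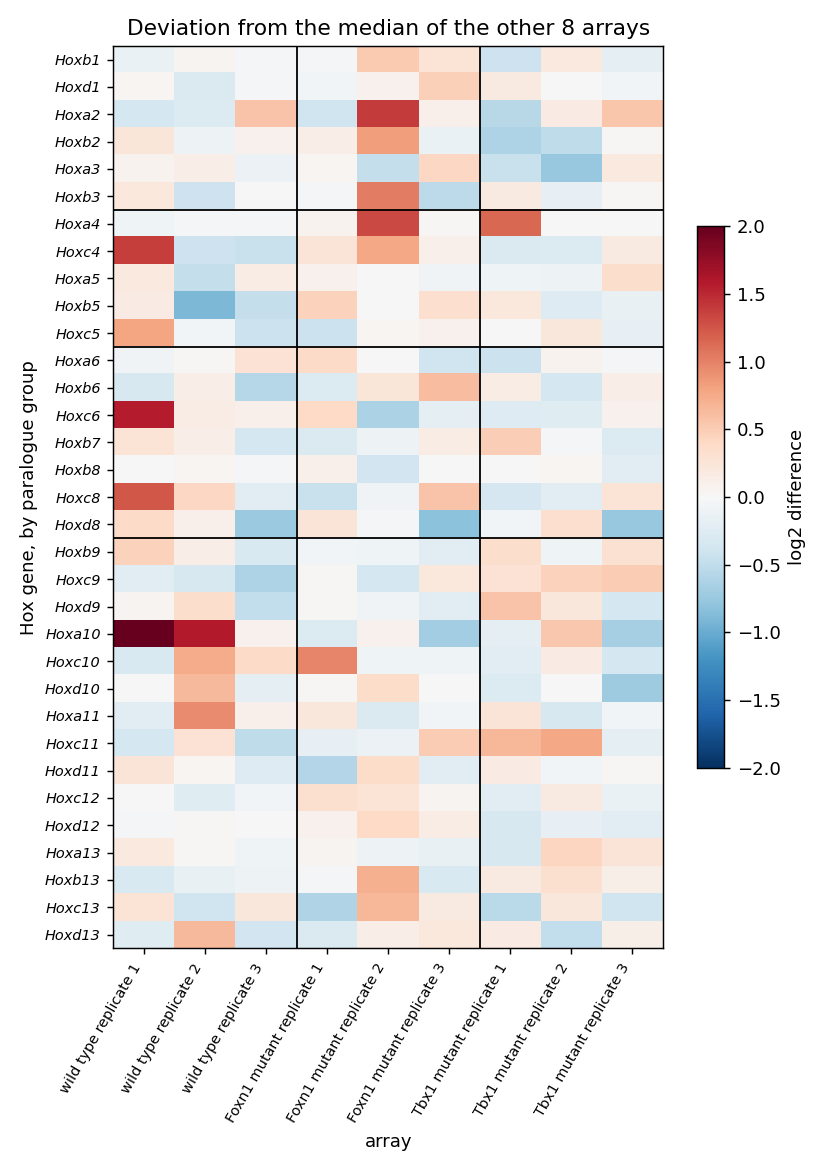
Deviation of each array (columns, by genotype) from the median of the other 8 arrays for the 33 Hox genes (rows, by paralogue group), in log2 units, red for higher and blue for lower. Foxn1 mutant replicate 2 is red for Hoxa2 (1.39), Hoxb2 (0.83), Hoxb3 (1.02) and Hoxa4 (1.32), and wild type replicate 1 for Hoxc4, Hoxc5, Hoxc6, Hoxc8 and Hoxa10 (1.99).

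In HoxC, 4 genes were highest on wild type replicate 1. Of its 9 genes, Hoxc4, Hoxc5, Hoxc6 and Hoxc8, which lie next to each other at one end of the cluster, had their top values there, with deviations of 1.38, 0.78, 1.57 and 1.24, while Hoxc9, the next gene along, deviated by -0.23. These 4 genes were grouped after their values were seen. Over all members, 7 of 33 were highest on this array (21.2%), against 16.3% of all transcript clusters, and 4 of 33 were at least 1 log2 unit above the median of the others (12.1%), against 6.38%. Hoxa10, at 1.99, was the member among those 4 from outside HoxC. Groups 6 to 8 had a median deviation of 0.28 beside -0.03 over all transcript clusters. The background of this array was itself the highest, with a negative-control median of 4.94, and Hoxc4, Hoxc5 and Hoxc8 stayed under it. With each array's negative-control median subtracted, all 4 HoxC genes were still highest on this array, 1 of the 4 was at least 1 log2 unit above their median, and the median deviation of groups 6 to 8 was -0.10.

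Wild type replicate 1 was high in markers of other tissues. All 8 sympathetic neuron markers were at their highest there, 7 of them above the negative-control median. The list mean was 9.62 against 4.98 to 5.40 on the other arrays. Th and Dbh, enzymes of catecholamine synthesis, read 12.44 and 12.04, while both lay under the negative-control median on the other 8 arrays. The parathyroid markers Pth, Casr and Chga were also highest there, with a mean of 13.60 against 5.37 to 12.89. The thymic epithelial list averaged 6.87, with 6 of 9 genes still above the negative-control median. Whether these tissues carry the Hoxc4 to Hoxc8 and Hoxa10 readings was not tested. For Hoxa10 the second high array, wild type replicate 2, had Th at 4.07 and Prss16 at 14.43. It stood apart in skeletal muscle markers, of which 5 of 7 were highest there, with a list mean of 8.18 against 4.19 to 6.00 elsewhere; their part in the Hoxa10 reading was not tested.

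**Figure D3:**
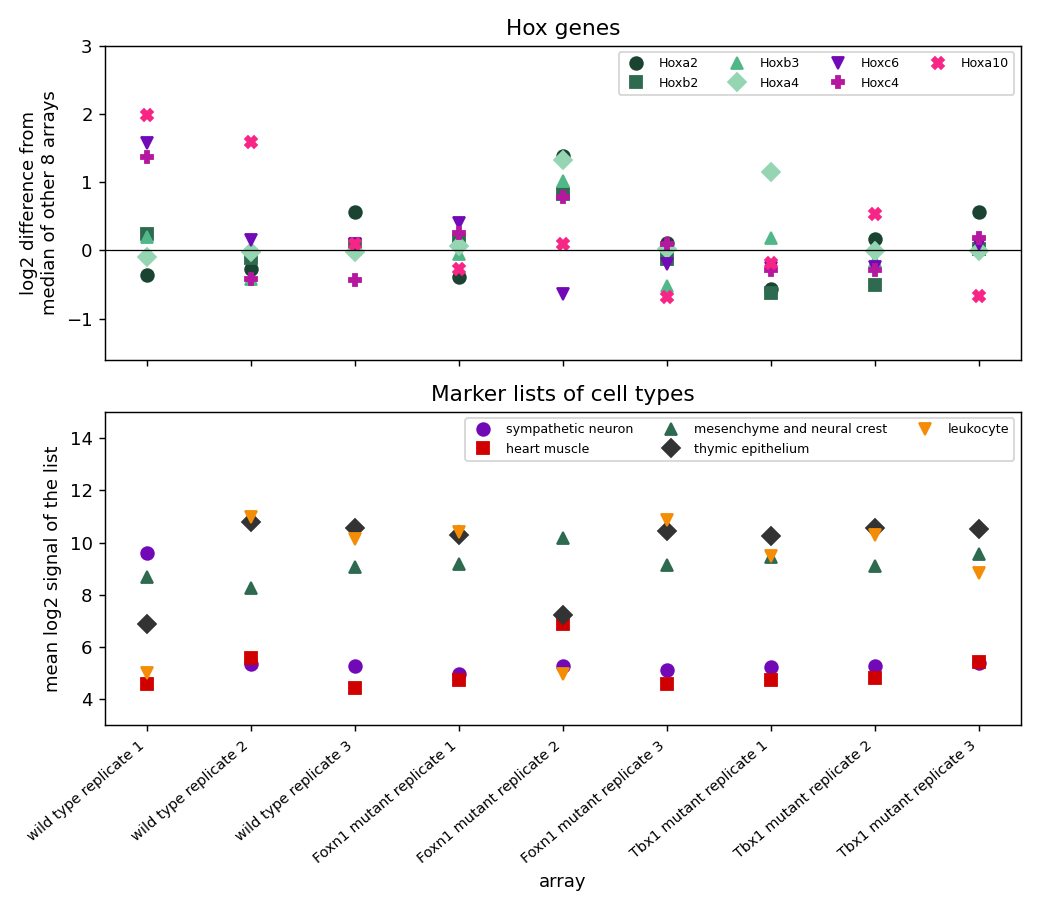
Upper panel, deviation of 7 Hox genes on each array from the median of the other 8 arrays, in log2 units. Lower panel, mean log2 signal of 5 cell type marker lists on the same arrays, 1 point per list and array. The anterior genes stand highest on Foxn1 mutant replicate 2, where the mesenchyme list reaches 10.19 and the heart list 6.89. Hoxc4, Hoxc6 and Hoxa10 stand highest on wild type replicate 1, where the sympathetic neuron list reaches 9.62.

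Cofactors and retinoic acid genes were set beside the Hox genes on the same arrays, and those named in this paragraph were chosen after their values were seen. Of 8 Pbx, Meis and Pknox genes measured, 4 had their top values on Foxn1 mutant replicate 2, as had 14.2% of all transcript clusters. On that array 1 of the 8 genes was at least 1 log2 unit above the median of the other 8 arrays. Meis1 read 14.01 there and 13.99 on wild type replicate 1, against 12.15 to 12.96 on the other 7 arrays. Meis2 read 14.83 there against 13.70 to 14.51 elsewhere. Of 17 retinoic acid pathway genes and related regulators, 7 were at least 1 log2 unit above the median of the other 8 arrays on Foxn1 mutant replicate 2, where 4.6% of all transcript clusters were, and 1, the hindbrain gene Egr2, was at least 1 under it, at 4.13. Among the 7, the retinaldehyde reductase Dhrs3 read 12.72 against 10.64 to 11.76 elsewhere, and the receptor gene Rarb read 7.27 against 5.93 to 6.95. On wild type replicate 1, 2 of the 17 were at least 1 log2 unit above the median of the others and 1 was at least 1 under it. Of all transcript clusters, 6.38% were that far above on that array. Stra6 read 6.50 there and 6.22 on Foxn1 mutant replicate 2. Aldh1a2, which makes retinoic acid, was highest on Tbx1 mutant replicate 3, at 10.01, and read 9.37 on Foxn1 mutant replicate 2. Hoxa2 read 10.53 on that Tbx1 mutant array, within the range of wild type.

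Between Foxn1 mutants and wild type, no Hox gene passed the test. The question of this comparison is whether the Foxn1 alleles altered the Hox genes of the lobe. With limma and Benjamini-Hochberg adjustment over all 22206 transcript clusters at a threshold of 0.05, 0 of 33 members were called, and 0% of all transcript clusters were. At an unadjusted p under 0.05 there were 2 of 33, Hoxb5 and Hoxa10, against 4.04% of all transcript clusters. The median difference of the 33 was 0.02, as over all transcript clusters. Hoxb5 was 0.62 ± 0.27 (SE) higher, with an interval at 95% confidence of 0.02 to 1.21 and a limma p of 0.0444. Hoxa10 was lower, at -1.45 ± 0.48, with an interval of -2.53 to -0.38 and a limma p of 0.0135. Within date code A the single Hoxa10 arrays of both genotypes read 4.13 (difference 0.00), within code B the difference was -1.98, and without both arrays of low Prss16 it was -1.23. For Hoxb5 the values within codes A and B were 0.41 and 1.19, and 0.39 to 0.86 when single arrays were left out. The single Foxn1 mutant array of code A is replicate 2, an array of low Prss16, so the code A values of both genes rest on it.

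The anterior genes had intervals that spanned 0 in this comparison. Hoxa2 differed by 0.34 ± 0.44 (interval -0.64 to 1.33), Hoxb2 by 0.20 ± 0.28, Hoxb3 by 0.22 ± 0.36 and Hoxa3 by -0.03 ± 0.29 (interval -0.68 to 0.61). Without Foxn1 mutant replicate 2 the first 3 turned to -0.14, -0.06 and -0.20 and Hoxa3 to 0.18. The arrays of the genotypes did not overlap for 3 of 33 members, all higher in Foxn1 mutants, against 8.29% of all transcript clusters. These were Hoxa4, at 0.50 ± 0.41 but 0.08 without Foxn1 mutant replicate 2, and, under the negative-control median, Hoxc12, at 0.28 ± 0.19, and Hoxd12. Of the members with the next lowest p, Hoxb6 differed by 0.40 ± 0.25 (0.22 without Foxn1 mutant replicate 3), Hoxc6 by -0.69 ± 0.40 and Hoxc8 by -0.42 ± 0.35, or -0.06 without wild type replicate 1. Without both arrays of low Prss16, the Hoxc6 difference was 0.03 and that of Hoxc8 -0.03. Within date codes the median over the 33 members was 0.37 in code A (1 array against 1) and -0.001 in code B (2 against 1). The code A value rests on Foxn1 mutant replicate 2, an array of low Prss16.

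Between Tbx1 mutants and wild type, again no Hox gene passed the test. The comparison asks whether the Tbx1 neo2 allele altered the Hox genes. Limma called 0 of 33 members after adjustment and 0.0135% of all transcript clusters, and 2 of 33 at an unadjusted p under 0.05, against 3.79%. The median difference was -0.05 over the 33 and 0.015 over all transcript clusters. Hoxc9 was 0.66 ± 0.20 higher (interval 0.21 to 1.12, limma p 0.00889), with values of 3.55, 3.46 and 3.16 in wild type and 3.93, 4.10 and 4.14 in Tbx1 mutants. These did not overlap but stayed under the negative-control median on all arrays. Within codes A and C the Hoxc9 difference was 0.77 and 0.57. Hoxa10 was lower, at -1.27 ± 0.48 (limma p 0.0256), with -0.18 within code A, -2.01 within code C and -0.88 without wild type replicate 1. That replicate, an array of low Prss16, is the single wild type array of code C, so the code C values of both genes rest on it. Both comparisons share the wild type arrays, so the like values of Hoxa10 in them are not independent.

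The group 2 and 3 genes had values of 0.03 ± 0.44 for Hoxa2, -0.42 ± 0.28 for Hoxb2 (interval -1.03 to 0.20), -0.34 ± 0.29 for Hoxa3 (interval -0.99 to 0.30) and 0.08 ± 0.36 for Hoxb3. The interval of Hoxa2 ran from -0.95 to 1.01. Of the members with the next lowest p, Hoxc11 differed by 0.56 ± 0.29, Hoxb5 by 0.34 ± 0.27, Hoxc6 by -0.68 ± 0.40 and Hoxd10 by -0.47 ± 0.28. Without wild type replicate 2, Hoxb5 stood at 0.11 and Hoxd10 at -0.23, and over single arrays left out Hoxa3 spanned -0.59 to -0.14. Arrays did not overlap for 5 of 33 members, against 9.45% of all transcript clusters. Hoxa4, at 0.42 ± 0.41 and 0.03 to 0.61 with single arrays left out, Hoxc9 and Hoxb13 were higher, and Hoxc6 and Hoxd12 lower. Without wild type replicate 1 the Hoxc6 difference was -0.20, and without Tbx1 mutant replicate 1 the Hoxa4 difference was 0.03. The median over the 33 members turned from -0.05 to 0.13 without wild type replicate 1. It was 0.14 within code A and -0.10 within code C, where replicate 1 is the single wild type array. All 3 parathyroid markers were lower in Tbx1 mutants beside these values. Chga and Pth, at -7.97 ± 0.69 and -6.62 ± 0.58, passed adjustment (limma adjusted p 0.00892 for both), and Casr, at -5.75 ± 0.85, did not (0.107).

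The mutants were also set against each other. Limma called 0 of 33 members after adjustment, with 0% of all transcript clusters called, and 2 of 33 at an unadjusted p under 0.05, against 2.98%. Hoxb2 differed by -0.62 ± 0.28 (interval -1.24 to -0.002, limma p 0.0494), lower in Tbx1 mutants, by -0.36 without Foxn1 mutant replicate 2 and by -1.39 within code A. Hoxd12, under the negative-control median, differed by -0.41 ± 0.18 (limma p 0.0442) and by -0.68 within code A. Code A holds 1 array of each mutant, and its Foxn1 mutant array is replicate 2, so both of its differences rest on that array. All 6 genes of groups 1 to 3 had a negative difference, from -0.12 to -0.62 with a median of -0.31, beside -0.01 over all transcript clusters, but without Foxn1 mutant replicate 2 Hoxa2 stood at 0.17 and Hoxb3 at 0.29. Hoxb1 differed by -0.39 ± 0.22, Hoxc9 by 0.39 ± 0.20, Hoxb9 by 0.27 ± 0.23 and Hoxc11 by 0.30 ± 0.29. With single arrays left out, Hoxb1 spanned -0.55 to -0.26 and Hoxc11 0.14 to 0.55. Arrays did not overlap for 2 of 33 members, Hoxc9 and Hoxd12, against 8.92%. The moderated F test for any genotype difference called 0 of 33 after adjustment, with 0.00901% of all transcript clusters called. It gave unadjusted p-values under 0.05 for Hoxa10 (0.0267) and Hoxc9 (0.0268), with 3.22% of all transcript clusters there.

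**Figure D4:**
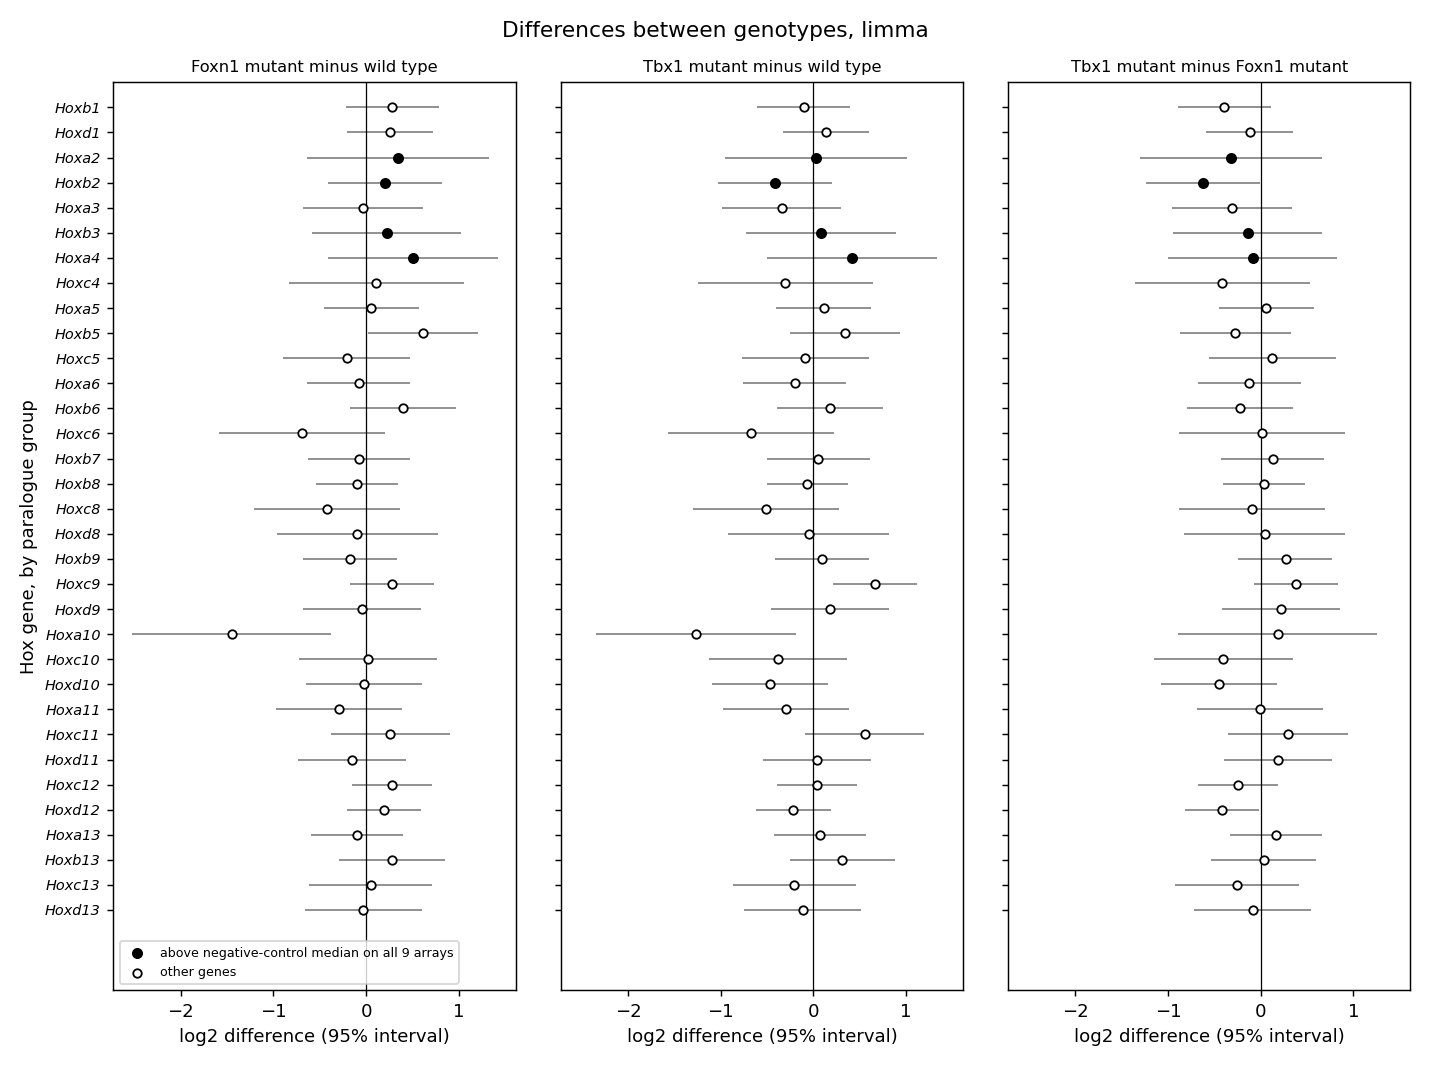
Difference between genotypes in log2 units (x axis) for the 33 Hox genes (y axis, by paralogue group), with 95% intervals from limma, 3 arrays per genotype. Filled points are the 4 genes above the negative-control median on all 9 arrays. Few intervals clear 0, among them Hoxa10 (-1.45 and -1.27 against wild type) and Hoxc9 (0.66 in Tbx1 mutants), and no gene passed adjustment.

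The genes that work with Hox proteins or control them were compared in the same fit. No gene was called in any of the 3 comparisons among 8 cofactors, 17 retinoic acid and related genes, 20 Polycomb and Trithorax genes and 10 genes of the pharyngeal pouch. Nor was any called among the 24 nearest measured genes around the Hox clusters, 3 on each side. Of all transcript clusters, limma called 0% and 0.0135% in Foxn1 and Tbx1 mutants against wild type, and 0% between the mutants. A list without a call is therefore the usual case. Among the retinoic acid genes, Cyp26b1, which degrades retinoic acid, had the lowest limma p. It read 4.35, 5.04 and 4.67 in wild type, 3.59, 4.01 and 3.56 in Foxn1 mutants and 4.68, 4.84 and 4.65 in Tbx1 mutants. The Foxn1 mutant arrays lay under all others, by -0.97 ± 0.23 against wild type (limma p 0.00214). They and wild type replicate 1 were under the negative-control median. Aldh1a2 differed by 1.16 ± 0.50 between Tbx1 mutants and wild type. Among the chromatin genes, the histone demethylase Kdm6a differed by 1.10 ± 0.36 between Foxn1 mutants and wild type. Among the cofactors, Pbx4 had the lowest limma p in both comparisons with wild type, at -0.28 ± 0.24 in Foxn1 mutants and -0.46 ± 0.24 in Tbx1 mutants. Pbx4 stayed under the negative-control median on every array.

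Of the 10 genes of the pharyngeal pouch, 7 lay above the negative-control median on all 9 arrays. Tbx1 did so on 7 arrays, and Ripply3 and Fgf8 on none. Pax1 read 8.18, 10.76 and 10.29 in wild type, 10.63, 9.07 and 10.39 in Foxn1 mutants and 10.09, 10.46 and 10.49 in Tbx1 mutants, lowest on the 2 arrays of low Prss16. Eya1 reached 15.40 on wild type replicate 1, against 11.31 to 13.04 elsewhere, and Isl1 reached 12.72 there against 8.48 to 9.16. Against wild type, Eya1 differed by -0.95 ± 0.78 in Foxn1 mutants and by -1.58 ± 0.78 in Tbx1 mutants, and Isl1 by -1.07 ± 0.91 and -1.29 ± 0.91. In both genes wild type replicate 1 stood above every other array. The 24 cluster neighbours had median differences of 0.00 and 0.10 against wild type in Foxn1 and Tbx1 mutants and -0.02 between the mutants.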

How the data were processed

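The deposited log2 values of 9 arrays, made by the authors, were used as given. No source used here states the normalization, software or build behind them, and the protocol in the labels names amplification and biotin labelling alone. Of 28846 features, 6640 controls were left out. Genotype means were modelled for all 22206 transcript clusters with limma 3.58.1 in R 4.3.3 (empirical Bayes, two-sided, Benjamini-Hochberg, threshold 0.05), after the fit was tested on simulated data. Errors with ± are SEs of the model. Promoter letters came from RefSeq and were searched in Python 3.11.15. The number of arrays limits the precision.

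The members, gene lists and tests were chosen with earlier results of these data known. Named genes were all members of paralogue groups 1 to 5, the members of widest range in each band of groups, and up to 3 members per direction of lowest p in a comparison. From other lists they were up to 2 genes of lowest p and markers that bear on an array that stands apart; other names were chosen after their values were seen. Alternatives covered normalization, dim transcript clusters, moderation, array weights, date codes and left-out arrays.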

Additional observations from a re-analysis of the deposited data

How the results depend on the processing

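No Hox gene was called in any comparison under any of the settings tried, and the lowest adjusted limma p of a member was 0.382. The median difference over the members moved by more than the spread of the array medians over the members (SD 0.098) in these settings. Without the dimmer transcript clusters under the overall median, which leaves 4 members, it was 0.28 for Foxn1 mutants against wild type, 0.054 for Tbx1 mutants against wild type and -0.23 between the mutants. For Tbx1 mutants it was 0.06 with array weights and 0.13 without both arrays of low Prss16. Leaving out 1 array at a time gave -0.065 to 0.13 for Foxn1 mutants, -0.10 to 0.13 for Tbx1 mutants and -0.09 to -0.04 between the mutants, with 0.13 in the first 2 without wild type replicate 1. With the negative-control median in place of the 95th percentile, 4 members in place of 1 passed on all arrays. With each array's negative-control median subtracted, the deviation of groups 6 to 8 on wild type replicate 1 turned to -0.10. Where the cause of a turn is not the setting's own construction, the cause was not tested.

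Of 32 named differences, 22 never changed direction. Part of the 32 were named for their low p in these same fits, which makes a turn less likely. The count is therefore no measure of robustness. For Foxn1 mutants against wild type, Hoxa2 turned to -0.025 with array weights, -0.28 without both arrays and -0.14 without Foxn1 mutant replicate 2 (single arrays left out, -0.14 to 0.68), and Hoxb2 to -0.061 without that replicate (-0.061 to 0.39). Hoxa3 turned to 0.017 with median centring, 0.056 with array weights, 0.19 without both arrays, 0.01 without wild type replicate 2 and 0.18 without Foxn1 mutant replicate 2 (-0.23 to 0.18). Hoxb3 turned to -0.075 without both arrays and -0.20 without Foxn1 mutant replicate 2 (-0.20 to 0.56), and Hoxc6 to 0.026 without both arrays. For Tbx1 mutants against wild type, Hoxa2 turned to -0.26 with date code as a fixed block, -0.002 with it as a random block (estimated correlation 0.063) and -0.12 without both arrays, and spanned -0.20 to 0.29 when single arrays were left out. Hoxb3 turned to -0.18 with the fixed block and -0.086 without wild type replicate 2 (-0.086 to 0.21). Between the mutants, Hoxa2, Hoxb3 and Hoxa4 turned to 0.043, 0.045 and 0.078 with array weights and to 0.17, 0.29 and 0.34 without both arrays or without Foxn1 mutant replicate 2, and Hoxa4 to 0.10 without Tbx1 mutant replicate 2 or 3. Their lowest values with 1 array left out were -0.65, -0.47 and -0.47. No paired analysis was possible because replicate numbers only name the arrays. Averaging over transcript clusters of a symbol gave the same values, since each symbol had 1. Readings near the negative controls limit what can be seen, which holds for all members but Hoxa2.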

Other observations

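Other homeobox genes were set beside the Hox genes. Among 7 ParaHox, Evx and Meox genes, none was called in any of the 3 genotype comparisons with limma, and 0 had an unadjusted p under 0.05. Of all transcript clusters, 0% to 0.0135% were called and 2.98% to 4.04% had an unadjusted p under 0.05. Meox1, a gene of somite mesoderm, read 7.28 on Foxn1 mutant replicate 2 and 5.27 to 6.39 on the other arrays, the same array on which Hoxa2 and Hoxb3 were highest. Meox2 read 3.28, 5.03 and 4.80 in wild type, 4.63, 5.51 and 4.18 in Foxn1 mutants and 3.67, 3.89 and 3.67 in Tbx1 mutants. The 3 Tbx1 mutant arrays lay under all Foxn1 mutant arrays, by -1.03 ± 0.47 (limma p 0.0546, not called after adjustment), while wild type replicate 1 lay under them. Meox2 passed the negative-control median on 4 arrays, and on no Tbx1 mutant array. These genes were chosen after their values were seen.

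Genes known from the Hox-free first arch, 10 Dlx, Msx, Otx2 and Barx1 genes, were in part above the negative controls. The list does not mark that arch alone, as Barx1 was also among the lung and foregut markers. Barx1, at 4.85 to 5.84, passed the negative-control median on all 9 arrays, Dlx1 on 7, Dlx2 on 6 and Msx1 on 3, and the other 6 genes on none. None was called between genotypes, where 0% to 0.0135% of all transcript clusters were. The lowest limma p between the mutants was that of Msx2, at -0.51 ± 0.18 (p 0.019), and the lowest between Tbx1 mutants and wild type that of Dlx3, at -0.63 ± 0.28 (p 0.0473).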
